A study of Mus musculus with 3 samples.

Results

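Regions of H3K4me3 that lay close to another such region were described in neurospheres grown from the mouse subventricular zone. A region was taken as grouped when another H3K4me3 region on the same autosome lay no more than 3000 bp away, measured from end to end, and grouped regions were chained into groups. Of the 21098 H3K4me3 regions on the 19 autosomes, 3679 (17.4%) were grouped, in 1662 groups, and 17419 were isolated. The full list holds 21998 regions with the sex chromosomes and unplaced contigs. Membership was set by the positions of the H3K4me3 regions alone, so group sizes, gaps, widths and scores are given as descriptions without a test. H3K27me3 came from another library and was not used to choose the members.

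The series holds 3 samples of neurospheres, floating cultures of neural stem cells. The cells came from male C57BL/6 mice with a WT genotype, out of the subventricular zone beside the lateral ventricles. One sample was immunoprecipitated for H3K4me3, one for H3K27me3, and one was input DNA, which was not analysed here. The series' design text calls the cells adult neural stem cells; the labels give no further age and do not say how many mice were pooled. There was 1 library per mark, so no value has a replicate error, and the spread between the 19 autosomes is the only one available. Cultures and animals cannot be compared.

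Trimethylation of lysine 4 on histone H3 marks the nucleosomes around active and poised promoters, above all those rich in CpG. The mark is low at the nucleosome-free start site itself and spreads to either side, and divergent or neighbouring promoters can give several adjacent stretches. Trimethylation of lysine 27 is laid down by Polycomb repressive complex 2 over silent developmental genes. Promoters that carry both marks are called bivalent and are well known from stem cells, where they go with genes held in a poised state. In bulk cultures the 2 marks of a region may come from different cells.

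Most groups were pairs. Groups of 2 regions numbered 1437, or 86.5% of the 1662, and held 78.1% of grouped regions. There were 171 groups of 3, 34 groups of 4, 10 groups of 5 and 10 groups of 6 or more. The group with the most members had 19 regions. A group of 2 spanned a median of 4939 bp from the first start to the last end, and a group of 6 or more a median of 28748 bp. Single chromosomes placed between 14.9% (chromosome 1) and 20.4% (chromosome 8) of their regions in groups, with an SD of 1.84 percentage points over the 19 autosomes.

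The gaps inside groups were mostly short. The median of the 2017 gaps was 725 bp, with an interquartile range of 159 to 1793 bp. Gaps of up to 100 bp numbered 358, and the next 100 bp held 234. Above 1000 and up to 3000 bp there were 43.4 gaps per 100 bp, and above 3000 and up to 10000 bp, outside the groups, 32.96 per 100 bp. Gaps of up to 300 bp numbered 716 (35.5%). The next 100 bp held 90, and each 100 bp above 400 and up to 1000 bp held 48 to 66. At the limit of 3000 bp nothing set inside apart from outside: the 3 longest gaps inside were 2993, 2995 and 2999 bp, and the next ones outside were 3005 bp and 2 gaps of 3007 bp.

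**Figure D1:**
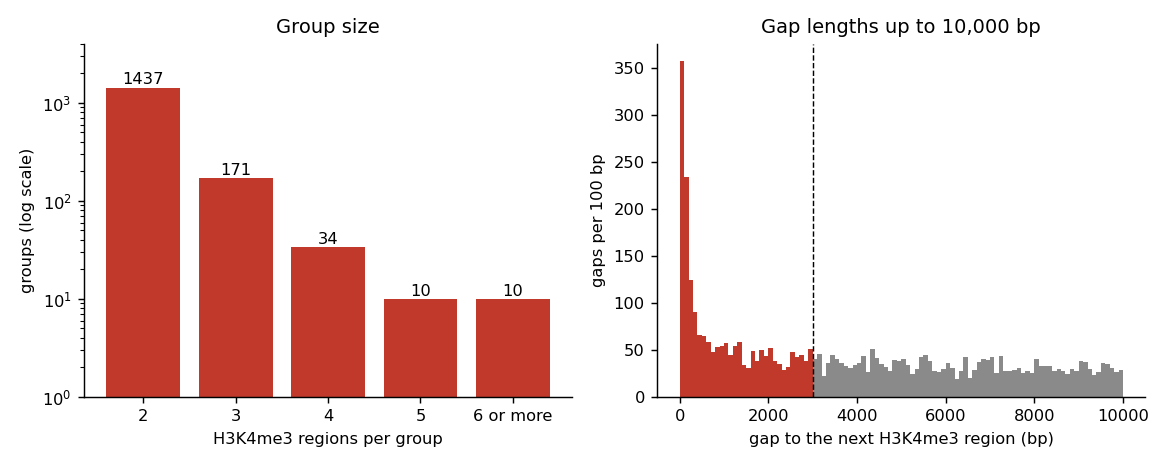
Left, the number of groups by the number of H3K4me3 regions in them, on a log axis. Right, gaps between neighbouring H3K4me3 regions on the autosomes per 100 bp, with gaps inside groups in red, longer ones in grey and the limit of 3000 bp as a dashed line. Gaps of up to 100 bp number 358. The mean per 100 bp is 43.4 above 1000 and up to 3000 bp, and 32.96 above 3000 and up to 10000 bp.

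The shortest gap was 1 bp and occurred 4 times. A pair on chromosome 11 (mm9, chr11:95573134-95576519) joined a region of 1394 bp, with a score of 935, to one of 1991 bp at a score of 3100. Neither region carried H3K27me3. A pair on chromosome 13 (chr13:96899734-96903587) joined a region of 766 bp, at a score of 66.1, to one of 3087 bp at 3100. There H3K27me3 covered 63.2% of the wider region and none of the narrower, so that directly neighbouring regions differed in state. Whether the lists count starts from 0 or from 1 is not stated. Positions were read as BED intervals, which count from 0; if they count from 1, a gap of 1 bp leaves no base between the regions.

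Grouped regions reached the top score less often than isolated ones, and over the whole list they were narrower. Their median width was 1763 bp (interquartile range 1076 to 2828 bp), against 2045 bp (1184.5 to 2855 bp) for isolated regions. Scores are the values deposited with the list; many pile up at 3100, and 3100 or above is called the top score. It was reached by 45.6% of grouped regions (95% Wilson interval 44.0 to 47.2%) and by 54.5% of isolated ones (53.8 to 55.3%). Within score classes this order was not seen at the top score, where the median width was 2913 bp for grouped and 2759 bp for isolated regions. Below the top score the medians were 1118 and 1127 bp. Intervals of shares cover counting error only and treat regions as independent, which neighbours are not.

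Many close pairs joined a wide, top-scoring region to a narrow, lower-scoring one. Among pairs of neighbours in a group, 51.96% had exactly 1 region at the top score, 19.2% had both and 28.9% had neither. At gaps of up to 300 bp the share with exactly 1 was 62.6%, or 448 of 716 pairs. In those 448 pairs the top-scoring region had a median width of 3094 bp and its partner 980 bp, and the top-scoring one was wider in 442. This difference in width was not limited to short gaps. Above 300 and up to 1500 bp the medians were 3413 and 1104 bp, and the top-scoring region was wider in 335 of 345 pairs. At gaps over 1500 bp they were 3098 and 1277 bp, with 248 of 255. Isolated regions were also wider at the top score, with medians of 2759 bp there and 1127 bp below it. How often random pairing would join exactly 1 top-scoring region to another was not computed. At gaps over 1500 bp the share with exactly 1 was 41.1% and the share with both was 27.4%, against 13.5% at gaps of up to 300 bp. Neighbours more than 3000 and up to 10000 bp apart had exactly 1 in 42.003% of pairs, and those beyond 100000 bp in 47.7%. Whether the caller split single stretches of signal at short gaps was not tested.

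The share of grouped regions with H3K27me3 lay near that of the whole list. A region was counted as carrying it when it shared at least 1 bp with an H3K27me3 region. This held for 1160 of the 3679 grouped regions, or 31.5% (95% Wilson interval 30.0 to 33.1%), beside 33.7% of all autosomal regions. Isolated regions stood at 34.2% (33.5 to 34.9%). The difference of -2.65 percentage points was negative on 12 of 19 autosomes and positive on 7 (exact sign test over autosomes, two-sided p = 0.36, p = 0.36 after Benjamini-Hochberg adjustment over the 6 tests made). By chromosome it ran from -12.6 points on chromosome 18 to 5.11 on chromosome 5.

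The 10 largest groups weighed on this comparison. Without the groups of 6 or more regions, the grouped share was 29.9% (28.5 to 31.5%), and the difference of -4.23 points was negative on 15 of 19 autosomes (exact sign test, unadjusted p = 0.019). Below the top score, 38.9% of grouped and 46.0% of isolated regions carried H3K27me3, a difference of -7.09 points (negative on 15 of 19, exact sign test, unadjusted p = 0.019). At the top score the shares were 22.7% and 24.3%. Where grouped regions did carry H3K27me3, it covered a median of 89.4% of their length, against 83.3% for isolated regions. At the top score the order was the opposite, at 50.6% and 58.3%, and below it the medians were 97.2% and 92.7%. Below the top score the highest-scoring H3K27me3 region touching them had a median score of 1744 for grouped and 594 for isolated regions. At the top score these medians were closer, at 487 and 431.

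Neighbours in a group were alike in H3K27me3 far more often than regions paired at random. Of the 2017 pairs of neighbours in groups, 1634 agreed, or 81.0% (95% Wilson interval 79.2 to 82.7%). Both regions carried H3K27me3 in 467 pairs and neither did in 1167. In 383 pairs, called split pairs below, 1 region carried it and the other did not. The background over neighbouring regions at any gap was 63.7% agreement.

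Random pairing was computed in closed form. If 2 grouped regions of the same chromosome were paired at random, 57.1% of pairs would agree, so the observed share was 23.9 percentage points higher. It was higher on 19 of 19 autosomes (exact sign test, two-sided p = 3.8e-06, the smallest that 19 autosomes can give; adjusted p = 2.3e-05). The excess ran from 9.86 points on chromosome 3 to 33.8 on chromosome 8. Pairing over all autosomes together would give 9.94% of pairs with the mark on both regions, where 23.2% had it. It would give 46.9% with the mark on neither, where 57.9% had none, and 43.2% split, where 18.99% were split.

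**Figure D2:**
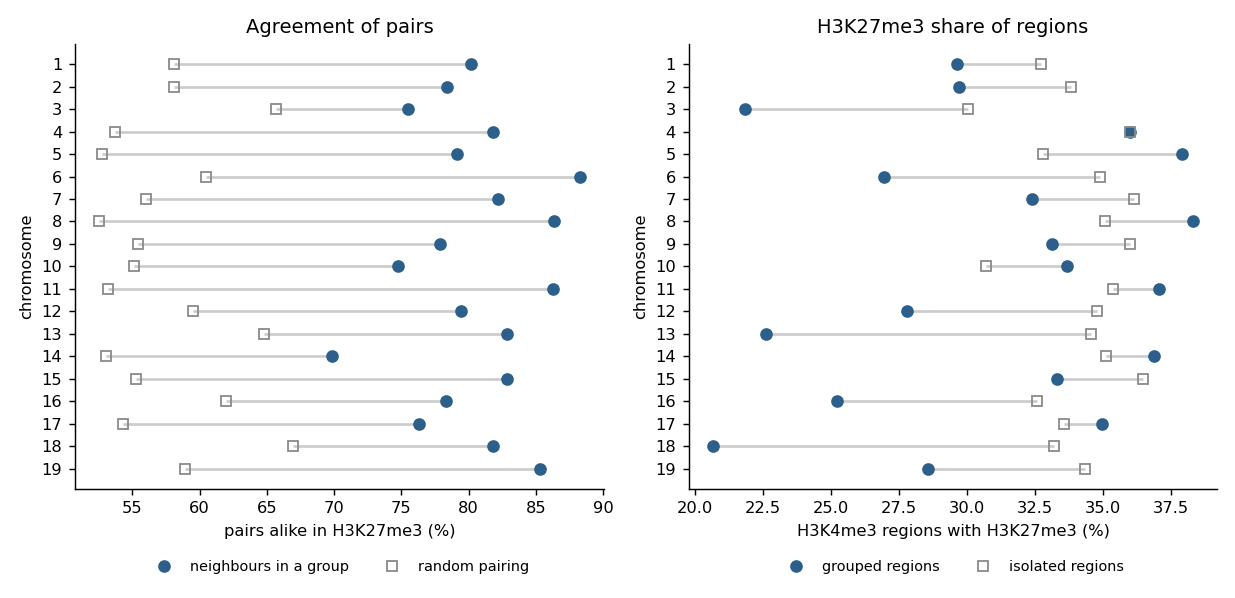
Values for each of the 19 autosomes. Left, the percentage of neighbouring regions in groups that were alike in H3K27me3 (filled) and the percentage under random pairing of the grouped regions of that chromosome (open); the filled point is to the right on all 19. Right, the percentage of grouped (filled) and isolated (open) H3K4me3 regions with H3K27me3; the grouped share is lower on 12 autosomes and higher on 7.

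Single H3K27me3 regions often ran across the gap. In 229 of the 467 pairs with the mark on both regions (49.0%, 95% Wilson interval 44.5 to 53.6%), 1 H3K27me3 region touched both, and the gap was wholly inside it. When such pairs were set aside, 78.6% of the remaining pairs agreed, against 57.3% under random pairing of all grouped regions. The share was higher on 19 of 19 autosomes. That reference still includes the regions of the pairs set aside, all of them marked. The difference of 21.3 points is therefore not the excess over random pairing of the remaining regions, which was not computed. Over all 467 pairs H3K27me3 covered 70.1% of the base pairs in gaps. In 71 of them (15.2%) the gap was free of it, although it lay on the regions at either side. Such free gaps were mostly short: 48 were among the 138 pairs at gaps of up to 300 bp (34.8%). At gaps over 1500 bp there were 11 among 153 pairs (7.19%). Where neither region was marked, 1149 of 1167 gaps (98.5%) were free as well, and 18 held an H3K27me3 region wholly inside the gap.

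Agreement was lower at the longer gaps within groups. It was 87.4% at gaps of up to 100 bp (95% Wilson interval 83.6 to 90.5%) and 86.6% from there up to 300 bp. Each class listed next likewise starts where the one before ended. The next classes were uneven, at 79.5% up to 500 bp, 82.7% up to 1000 bp, 78.5% up to 1500 bp and 79.1% up to 2000 bp. The last were 71.5% up to 2500 bp and 73.1% up to 3000 bp, with intervals that overlap between adjacent classes. Gaps of up to 1500 bp gave 83.8% and gaps over 1500 bp gave 74.7%. The difference of 9.15 points was positive on 18 of 19 autosomes (exact sign test, p = 7.6e-05, adjusted p = 0.00015). The share of marked regions differed between these classes, so random pairing alone would give 57.5% and 53.2%. The excess over random pairing was 26.3 and 21.5 points in these classes. In the finer classes, each again starting where the one before ended, the excess did not fall steadily. It was 24.1 points up to 100 bp, 26.4 up to 300 bp, 20.7 up to 500 bp and 28.3 up to 1000 bp. It was then 26.9 up to 1500 bp, 27.4 up to 2000 bp, 18.7 up to 2500 bp and 18.1 up to 3000 bp. Whether the excess depends on the gap was not tested. By the same exact sign test, the call was lost when H3K27me3 had to cover 50% of a region (6.59 points, positive on 12 of 19, p = 0.36) or to score 100 or more (7.81 points, 14 of 19, p = 0.064).

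Beyond the groups agreement was lower again, and it was not resolved just past 3000 bp. Neighbours more than 3000 and up to 10000 bp apart agreed in 70.2% of 2307 pairs, 10.8 points less than neighbours in groups. Groups were higher on 18 of 19 autosomes (exact sign test, p = 7.6e-05, adjusted p = 0.00015). Random pairing of the regions of each class, over all autosomes, gave nearly the same value for both, at 56.0% and 55.2%. Agreement was 65.7% above 10000 and up to 30000 bp, 62.01% from there up to 100000 bp and 54.97% beyond, where random pairing gives 53.5%.

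**Figure D3:**
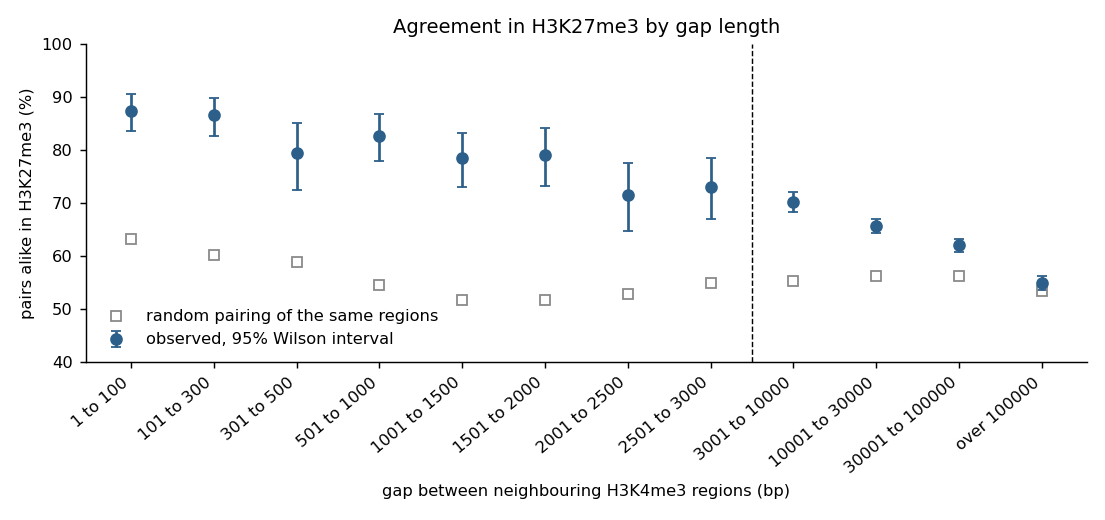
Percentage of neighbouring H3K4me3 regions that were alike in H3K27me3, by the gap between them in bp, with 95% Wilson intervals (filled). Open squares give random pairing of the regions of the same gap class. The dashed line stands at 3000 bp; agreement falls from 87.4% at up to 100 bp to 54.97% beyond 100000 bp, where the square lies at 53.5%.

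The kinds of agreement differed by gap. At gaps of up to 100 bp 69.6% of pairs had no H3K27me3 and 17.9% had it on both regions. Above 1000 and up to 1500 bp these shares were 48.6% and 29.96%. The share of marked regions moved with this, from 24.2% of regions at up to 100 bp to 40.7% above 1000 and up to 1500 bp. The score makeup of pairs moved too, as given above, and how much it contributes was not tested. By score, pairs with both regions at the top agreed in 84.8% of cases and carried the mark on both in 13.4%. Pairs with neither region at the top agreed in 81.4% of cases and carried it on both in 44.8%. Pairs with exactly 1 top-scoring region agreed in 79.4%. Random pairing within each kind gives 66.7% for both at the top, 50.3% for neither and 62.5% for exactly 1, so the excess was 18.05, 31.1 and 16.9 points.

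**Figure D4:**
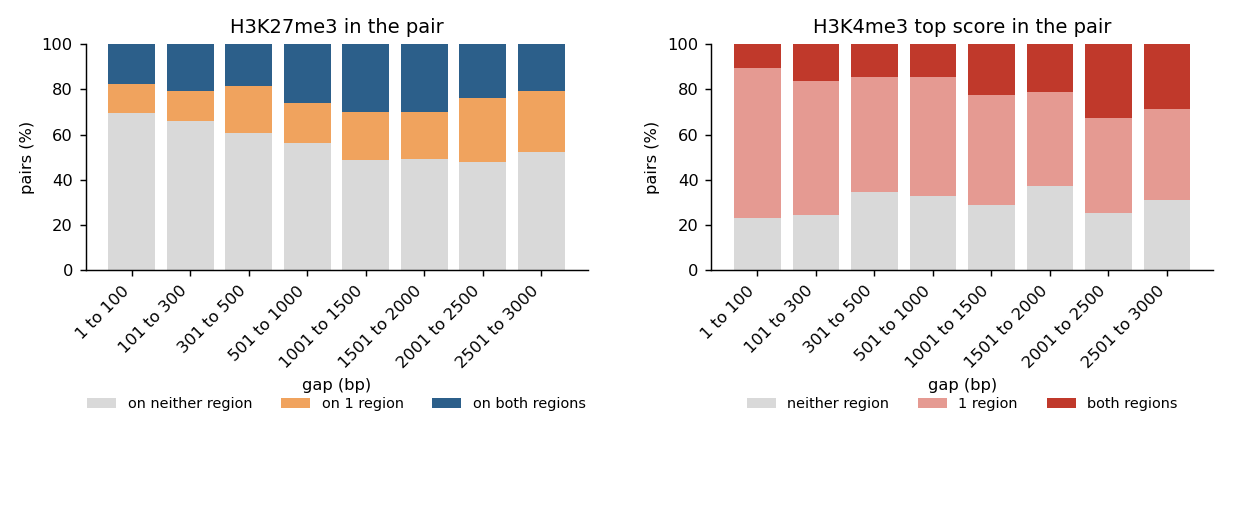
Make-up of neighbouring pairs in groups by gap length in bp, as percentages of pairs. Left, pairs with H3K27me3 on neither, 1 or both regions; right, pairs with neither, 1 or both H3K4me3 regions at the top score. The share with 1 marked region is 12.6% at up to 100 bp and 26.9% above 2500 bp, while the share with 1 top-scoring region goes from 66.2% to 40.4%.

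Whole groups were mostly of one kind. Of the 1662 groups, 976 (58.7%) had no H3K27me3 on any region, 322 (19.4%) had it on every region, and 364 (21.9%, 95% Wilson interval 19.98 to 23.95%) were split. Random pairing over all autosomes would split 46.7% of groups of these sizes. Among groups of 2, 20.5% were split against 43.2% at random, and among groups of 3, 32.2% against 64.8%. In 41 of the 55 split groups of 3 (74.5%, 61.7 to 84.2%) the odd region was at an end, so that the state changed once along the group. If its place were random, the share would be 66.7%, which lies within that interval. The middle region alone carried the mark in 8 groups and alone lacked it in 6.

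Regions whose neighbour was also marked were covered more completely. Counted once per pair, the 934 marked regions of pairs with the mark on both were covered over a median of 97.7% of their length, and 43.9% of them were fully covered. The 383 marked regions of split pairs were covered over a median of 55.3%, and 11.7% were fully covered. In a split pair H3K27me3 cannot, by definition, run across the gap into the neighbour. Scores differed too: neither region was at the top score in 261 of the 467 pairs marked on both and in 108 of the 383 split pairs. Marked grouped regions were covered over a median of 50.6% at the top score and 97.2% below it. How much the scores contribute was not tested. In the 467 pairs marked on both, both regions were covered over at least 50% in 368 (78.8%), and Spearman's rho of the covered shares was 0.41. That coefficient describes pairs that often share the same H3K27me3 region.

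In split pairs H3K27me3 lay more often over the far end of the marked region than over the end facing its unmarked neighbour. It covered only the end away from the neighbour in 141 of 383 split pairs (36.8%, 95% Wilson interval 32.1 to 41.8%) and only the end facing it in 46 (12.01%, 9.13 to 15.6%). It covered both ends in 58 (15.1%) and neither end, lying inside the region, in 138 (36.0%). A stretch that passes the facing end has to stop within the gap for the pair to be split, so the definition lowers that count. The unmarked region lay a median of 1260 bp from the nearest H3K27me3 region, and within 1000 bp in 156 cases (40.7%). By definition its marked neighbour is no more than 3000 bp away, which keeps this distance short. Over all unmarked grouped regions the median distance was 14.1 kb.

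With an overlap of at least 1 bp, the marked region of a split pair was more often the higher-scoring one. Of the 324 split pairs with different scores, it was the higher in 197 (60.8%), on balance on 15 autosomes against 3, with 1 tied (exact sign test, p = 0.0075, adjusted p = 0.011). The marked region was the wider in 225 of 383 (58.7%), with 14 autosomes against 5 (exact sign test, p = 0.064, adjusted p = 0.076), and median widths were 1991 bp with the mark and 1521 bp without. Counting only cover of 50% or more, both orders turned: the wider region was marked in 44.3% and the higher-scoring in 46.3% of split pairs (exact sign tests, p = 0.33 and p = 1). With H3K27me3 scores of 100 or more, the higher-scoring region was marked in 60.9%, but with 12 autosomes against 4 (exact sign test, p = 0.077). Over all grouped regions, not only split pairs, the order was the opposite. There 22.7% of regions at the top score and 38.9% of those below it carried H3K27me3.

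The 10 groups of 6 or more regions had the highest H3K27me3 share of any size class. They held 106 regions on 8 chromosomes, and 90 of these (84.9%, 95% Wilson interval 76.9 to 90.5%) carried it, against 29.9% (28.5 to 31.5%) in groups of 2 to 5. Every region was marked in 5 of the 10 groups, 4 were split and 1 had none. The intervals treat regions as independent, but regions of the same group were mostly alike, so the intervals are too narrow. The contrast with groups of 2 to 5 was noticed in these data and was not tested. The 6 groups with the most regions, chosen by size, are described first.

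The group with the most regions lay near the start of chromosome 11 (chr11:3022657-3104120, 81.5 kb). Its 19 regions were 871 to 15497 bp wide with a median gap of 127 bp, and together they covered 95.2% of the span. H3K27me3 was on the first 17 regions and absent from the last 2, and it covered 87.1% of the span. Chromosome 6 had a pair of large groups 50.2 kb apart, with 11 regions (chr6:47596515-47636976) and 16 regions (chr6:47687152-47732239). In the first, all 11 regions were marked and H3K27me3 covered 99.7% of the span. In the second, 15 of 16 were marked, the last one was not, and H3K27me3 covered 88.6%. Both marks covered at least 82.6% of each of these 3 stretches.

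A group of 12 regions on chromosome 4 (chr4:88418651-88452694) had the narrowest range of widths of the 6. All 12 were at the top score and 1684 to 2038 bp wide (mean 1793 ± 126 bp, SD over 12 regions). Their starts followed each other at 2936 ± 184 bp (SD over 11 steps). H3K27me3 was present on all 12 in separate regions, whose scores within their own list were 76.9 to 235. The last H3K27me3 region touching each began 1017 to 1533 bp into it and ran past its end. H3K27me3 lay over the right-hand end of 12 of the 12 regions and over the left-hand start of 1, and covered 21.04 to 41.99% of their length. Along this stretch the marks alternated, with a partial overlap at each step.

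The other 2 of the 6 had lower H3K4me3 scores. On chromosome 8 (chr8:19695881-19737656) 15 regions, all marked, had scores of 61.9 to 947, none at the top. On chromosome 7 (chr7:38958946-38980662) 8 regions, all marked, had 1 at the top score. Whether repeated or multiply mapping sequence lies under these large groups was not tested, since no genome sequence of the build mm9 was used here. Without groups of 6 or more, 80.3% of neighbours agreed against 58.4% at random, higher on 19 of 19 autosomes. The excess over neighbours up to 10000 bp apart was then 10.05 points and the contrast of shorter with longer gaps 8.78 points, each on 18 of 19.

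**Figure D5:**
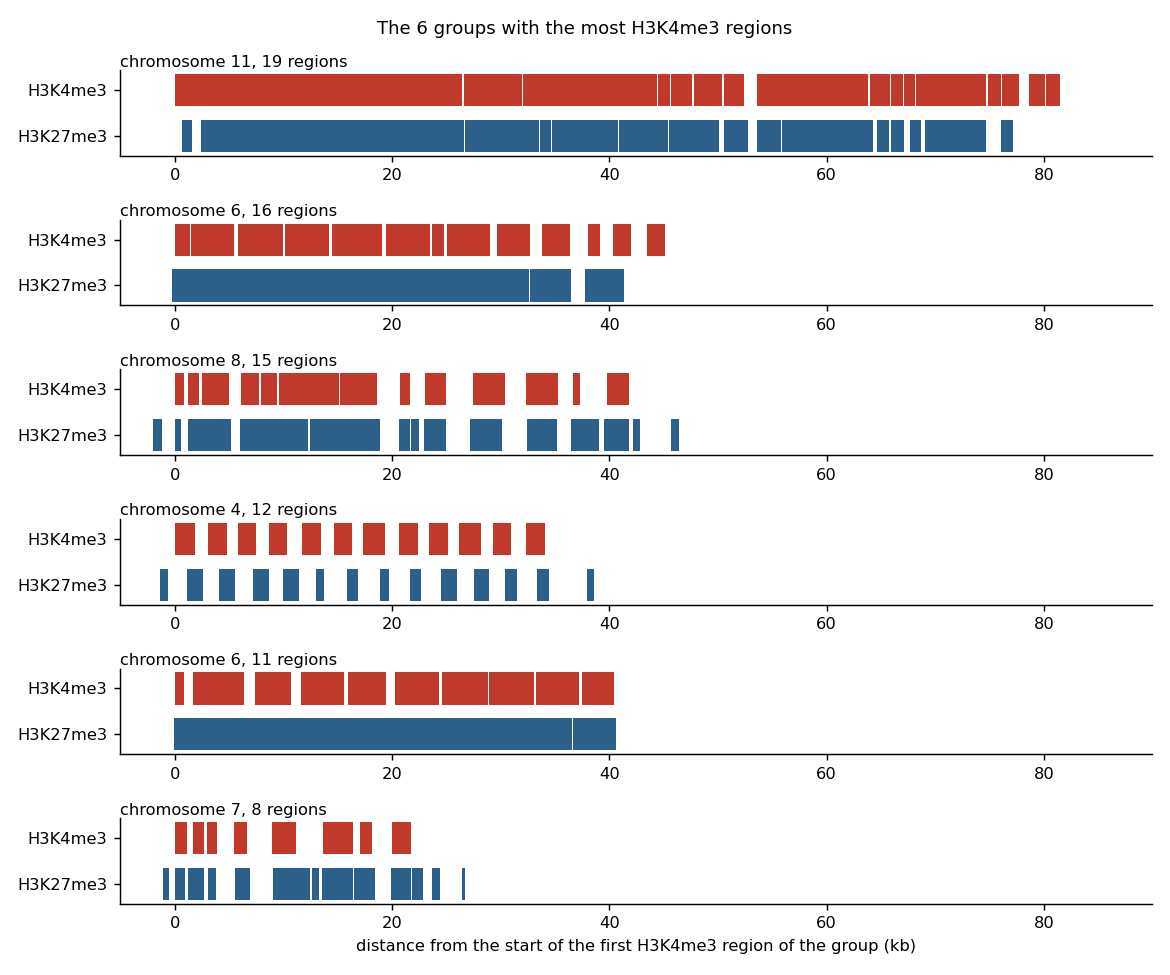
The 6 groups with the most H3K4me3 regions, drawn to one scale as distance in kb from the start of the first H3K4me3 region, with H3K4me3 regions in red and H3K27me3 regions in blue. The 12 regions on chromosome 4 follow each other at 2936 bp with H3K27me3 over the right-hand end of each, while on chromosome 6 H3K27me3 runs across the gaps and covers 99.7% and 88.6% of the span.

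In the 4 split groups of 6 or more regions, the state changed once along the group. A group of 7 on chromosome 8 (chr8:19772051-19793951) had H3K27me3 on its first 4 regions and none on its last 3. The fourth region, 7035 bp wide and at the top score, was covered over 73.7%. The gap to the fifth was 674 bp. The chromosome 11 and second chromosome 6 groups above also had all unmarked regions at one end. A group of 6 on chromosome 17 (chr17:23669796-23688732), added here after its values were seen, carried the mark on its first 2 regions and not on the other 4.

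In the 10 groups of 5 regions, 6 of 50 regions carried H3K27me3, beside 33.7% of all autosomal regions. Of these 6, 4 were in a single group on chromosome 8, and 7 of the 10 groups had none. That chromosome 8 group (chr8:19753502-19766351) lay between the groups of 15 and 7 regions described above, with no other H3K4me3 region between them. The groups of 5 were chosen after their values were seen. A group on chromosome 3 (chr3:88003305-88033481) had a region of 19697 bp flanked by regions of 3161, 745, 1834 and 900 bp, with no H3K27me3 in its 30.2 kb. On chromosome 12 (chr12:50474698-50496571) a region of 11817 bp stood with 4 narrower ones, also free of it. The group of 6 without H3K27me3, on chromosome 15 (chr15:85494343-85517794), was of the same form, with a region of 14075 bp beside 5 of 959 to 1681 bp.

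Groups of 2 were named by the summed width of their regions, 3 in each class. The widest pairs with no H3K27me3 were on chromosome 2 (chr2:115881007-115902441, regions of 18073 and 2308 bp), on chromosome 3 (chr3:34546637-34565357, 11909 and 6768 bp with a gap of 44 bp) and on chromosome 4 (chr4:82141211-82159866, 805 and 17793 bp with a gap of 58 bp). In the last 2, H3K4me3 regions filled 99.8% and 99.7% of the span. The narrow region on chromosome 4 scored 71.8 beside a neighbour at 3100.

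The widest pairs with the mark on both differed in how far it reached. On chromosome 2 (chr2:38203046-38213274) it covered 100% of a region of 1542 bp and 67.1% of one of 7785 bp. On chromosome 7 (chr7:19885570-19896579) it covered 31.3% and 51.6%. On chromosome 13 (chr13:63662703-63675759) it covered 26.98% of a region of 2958 bp but 0.0906% of its neighbour of 7724 bp, which counts as marked only because 1 bp was enough.

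In the widest split pairs the cover was partial. A pair on chromosome 19 (chr19:7042887-7056486) with a gap of 2985 bp had the mark over 33.8% of its narrower region (2284 bp) and none on the wider one (8331 bp). On chromosome 5 a pair with a gap of 257 bp (chr5:58105089-58115916) had it over 7.87% of a region of 9585 bp and not on its neighbour of 986 bp. A second pair there (chr5:125864537-125875592) had it over 14.2% of a region of 6572 bp and not on one of 3598 bp. Which genes lie at these places was not analysed here, since the gene table at hand is of another genome build.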

How the data were processed

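Each mark had 1 deposited list that gives every region a position and a score. The submitters' processing notes name Bowtie 1.1.2 and mm9, and the deposited names are those that MACS writes. The caller's version and threshold, and whether input served as a control, were not given in the sources used here. No scale is stated for the deposited score, which was compared only within a list. Depth is unknown here, so an unmarked region has no detection limit.

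Positions were read as BED intervals and are printed counted from 1; a gap is the later start minus the earlier end. Overlap meant at least 1 shared bp. Random pairing was the closed-form chance that 2 grouped regions of a chromosome agree. For classes of gap or score it was taken over all autosomes, from the regions of the pairs in that class, counted once per pair. Differences were set against the 19 autosomes by two-sided exact sign tests, which measure the spread between chromosomes of these libraries, and 6 p-values were adjusted by Benjamini-Hochberg. A region in a group of 3 or more enters several pairs. Places were named by size and summed width, with exceptions stated. Members and comparisons were chosen with earlier results of these data known. The work used SciPy 1.17.1, pandas 2.3.3, NumPy 2.4.6 and matplotlib 3.10.9 under Python 3.11.15. Overlaps and groups differed by 0 from bedtools 2.31.1, and the pair counts were tested on simulated data. Alternatives varied the gap, overlap, scores, widths and group sizes. No sequence is printed, since no mm9 genome was used.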

Additional observations from a re-analysis of the deposited data

How the results depend on the processing

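The excess of agreement over random pairing kept its direction on 19 of 19 autosomes under all 13 alternatives run, from 20.9 to 25.6 percentage points. Among them, the alternative without pairs touched by the same H3K27me3 region (21.3 points) kept the random pairing of all grouped regions. It does not give the excess over random pairing of its own regions. The excess over neighbours more than 3000 and up to 10000 bp apart stayed past its threshold under 5 alternatives, from 9.06 to 11.1 points. The contrast of gaps up to 1500 bp with longer ones, 9.15 points as reported, fell short of the threshold at 6.59 points (50% of the region covered) and 7.81 points (H3K27me3 score of 100 or more). The H3K27me3 share of grouped minus isolated regions was negative throughout. It passed an unadjusted p of 0.05 at -6.80 points with groups at gaps of up to 1000 bp, -2.40 at 5000 bp, -7.09 below the top score and -4.23 without groups of 6 or more. The other 8 alternatives ranged from -3.48 to -0.921 points. For split pairs, the lead of the wider region, 17.5 points, turned to -11.3 with 50% covered, and that of the higher-scoring region, 21.6 points, turned to -7.39; the latter was 21.8 points but short of the threshold with H3K27me3 scores of 100 or more. The cause was not tested. The number of groups, 1662, was 1012 with gaps of up to 1000 bp, 1357 with 2000 bp and 2159 with 5000 bp, which follows from the limit itself. Leaving out groups of 6 or more, setting aside pairs touched by the same H3K27me3 region in the gap contrasts, and the overlap and score alternatives for gap contrasts and split pairs were chosen after seeing the data. No paired analysis was possible because neither antibody has a second library.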

Other observations

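Close groups also occurred outside the autosomes. On X, 77 of 701 H3K4me3 regions (10.98%) were grouped, below the lowest autosome at 14.9%, in 35 groups of up to 5 regions. H3K27me3 was on 14 of these 77 (18.2%) and on 129 of the 624 isolated regions of X (20.7%). Neighbours in groups of X agreed in 35 of 42 pairs (83.3%, 95% Wilson interval 69.4 to 91.7%), where random pairing would give 69.9%. Y had 6 regions and no group.

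On unplaced contigs 119 of 191 H3K4me3 regions (62.3%) were grouped, above the highest autosome at 20.4%. H3K27me3 was on 80 of these 119 (67.2%) and on 26 of the 72 isolated ones (36.1%). Neighbours there agreed in 61 of 87 pairs (70.1%, 59.8 to 78.7%), where random pairing would give 55.6%. None of these differences was tested.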
